A study of Mus musculus with 29 samples.

Results

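The genes described here are Saa3, Acod1, Nos2, Lcn2, Ptgs2 and Il6, 6 effectors of the acute inflammatory response out of the 48709 gene identifiers in each of 3 count tables. They were chosen by symbol, partly from their measured values, since Saa3 and Acod1 stood among the larger differences in the co-culture. All 6 were found in each table by their Ensembl identifier. RNA was measured by polyA-selected RNA-seq in 29 mouse libraries. PFC (prefrontal cortex) tissue came from male C57BL/6J mice aged 3 months, in which 3 animals had been given anti-miR-99b and 3 had been given sc-control. Primary microglia came from CD1 pups at P1, with 4 libraries for each of the same treatments. In the co-cultures, CD1 cortical neurons of embryonic day 17.5 received P1 microglia that had been treated beforehand, with anti-miR-99b in 7 libraries and with sc-control in 8. The inhibitor, anti-miR-99b, is an antisense oligonucleotide with locked nucleic acid (LNA) bases against miR-99b-5p, and sc-control carries a scrambled sequence. Both were delivered in lipid nanoparticles, so that treated and control samples had all received particles. The mature miRNA is not captured by a polyA library, and its level was not analysed here. The PFC samples were bulk tissue of all cell types, and the microglia had been shaken off mixed glial cultures grown with L929-conditioned medium. The labels do not say whether libraries of the cultures came from separate preparations, so their p-values measure only the spread between these libraries.

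Each library held between about 21324200 and 37901100 counts on genes. Levels are given as CPM, the count of a gene relative to the library total, scaled by edgeR's TMM factors within an experiment, and 3 counts in 1 library corresponded to between 0.0788 and 0.142 CPM. The labels were checked against marker genes of each cell type. The 10 microglia markers summed to between 11359 and 12010 CPM in the microglia libraries, to between 433 and 600 CPM in the PFC and to between 99.4 and 138 CPM in the co-cultures. The 10 astrocyte markers summed to between 2607 and 2824 CPM in the co-cultures, so the wells held astrocyte transcripts beside those of neurons and microglia. Since RNA was taken from whole tissue or whole wells, fewer cells of a type and less RNA per cell cannot be told apart.

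Microbial products and cytokines act on microglia and other cells through Toll-like and cytokine receptors, and the signal reaches the nucleus mainly through NF-kB, C/EBP and STAT proteins. The genes described here lie at the far end of that route. Saa3 encodes a serum amyloid A protein that is made outside the liver by macrophages and other cells. Acod1 encodes the mitochondrial enzyme that makes itaconate from cis-aconitate, a product that dampens inflammation and bacterial growth. Nos2 is the inducible nitric oxide synthase, and Lcn2 is a lipocalin that withholds iron by binding siderophores and is a known product of reactive astrocytes. Ptgs2, or cyclooxygenase 2, makes the precursor of prostaglandins and is also expressed by excitatory neurons, and Il6 is the cytokine interleukin 6.

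The sequence bound by the inhibitor is shown first, before the matches to it in the 6 genes. The mature miRNA is encoded at chr17:17830194-17830215 on the plus strand (RefSeq, GRCm38.p6), with the seed, bases 2 to 8, in capitals.
miR-99b-5p: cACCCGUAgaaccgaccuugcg
The 7-base complement of the seed, TACGGGT, was found in no protein-coding transcript of the 6 genes (0 of 6), against 2.95% of 21877 protein-coding genes of GENCODE M21. The 6-base complement of bases 2 to 7, ACGGGT, was present in 3 of the 6, Saa3, Acod1 and Nos2, against 16% of all these genes. The Saa3 match was in the 3′ UTR of 1 of its 2 coding transcripts, at chr7:46714353-46714358 on the minus strand. The Acod1 match was in the 3′ UTR at chr14:103056168-103056173 on the plus strand, and the Nos2 match in the coding sequence at chr11:78945684-78945689 on the plus strand. The matches of the pair of genes that differed in the co-culture are given with 10 bases on either side and the 6 matching bases in capitals.
Saa3: agatcatggcACGGGTggaaggcagc
Acod1: caagaaaagaACGGGTtctaagtccc
A match of 6 bases is a description of the sequence and does not show that the miRNA acts there.

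The promoters of Saa3 and Acod1 are shown because these genes were higher together in the anti-miR-99b co-cultures. Each runs from 250 bases before to 50 bases after the start of the RefSeq transcript (GRCm38.p6), with matched motifs in capitals. The Saa3 promoter lies at chr7:46715627-46715926 on the minus strand and the Acod1 promoter at chr14:103046762-103047061 on the plus strand.
Saa3: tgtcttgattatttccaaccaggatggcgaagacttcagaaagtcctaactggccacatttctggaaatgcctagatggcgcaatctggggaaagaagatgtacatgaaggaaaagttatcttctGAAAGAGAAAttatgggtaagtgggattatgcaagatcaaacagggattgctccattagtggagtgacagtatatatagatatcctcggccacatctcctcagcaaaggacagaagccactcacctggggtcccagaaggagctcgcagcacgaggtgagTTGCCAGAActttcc
Acod1: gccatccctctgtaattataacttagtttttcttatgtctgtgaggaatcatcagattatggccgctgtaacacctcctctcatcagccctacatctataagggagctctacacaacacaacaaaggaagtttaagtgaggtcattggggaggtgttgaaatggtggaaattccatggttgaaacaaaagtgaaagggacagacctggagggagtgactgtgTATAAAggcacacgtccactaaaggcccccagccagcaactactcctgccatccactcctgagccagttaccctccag
Motifs were searched on both strands in 32851 promoters of this length. In Saa3 the capitals mark a match to the interferon-stimulated response element, GAAAGAGAAA, 125 to 116 bases before the start. They also mark a match to the pattern TTGCNNNAA, 36 to 44 bases after the start. The response element and this pattern were found in 3.44% and 9.56% of all promoters, in that order. The pattern was searched for C/EBP, but its spacing is wider than that of the C/EBP site. C/EBP sites were therefore not tested in any promoter. In Acod1 the capitals mark the TATA box TATAAA, 28 to 23 bases before the start, which 13.6% of promoters held. The NF-kB motif, present in 8.46% of promoters, was matched in Il6 (chr5:30013070-30013079) but in none of the other 4 promoters at hand, and the AP-1 motif TGANTCA (7.81%) was also matched in Il6 alone. The GAS motif TTCNNNGAA (8.3%) was matched in none of the 5. No motif searched was matched in Lcn2 or Ptgs2, and Nos2 had no promoter entry. Whether the promoters of Lcn2, Ptgs2 and Il6 hold C/EBP sites was not tested, for the reason given above.

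All 6 are protein-coding genes on separate chromosomes, and no other annotated gene of GENCODE M21 overlapped any of them. Saa3 (ENSMUSG00000040026) lies at chr7:46711998-46715700, Acod1 (ENSMUSG00000022126) at chr14:103046977-103056573, Nos2 (ENSMUSG00000020826) at chr11:78920787-78960254, Lcn2 (ENSMUSG00000026822) at chr2:32384633-32388252, Ptgs2 (ENSMUSG00000032487) at chr1:150100031-150108227 and Il6 (ENSMUSG00000025746) at chr5:30013114-30019981, all on GRCm38. The serum amyloid A genes share sequence, so that reads could be split among them, but Saa1 and Saa2 were at 0 counts in all 8 microglia libraries and at a mean of at most 0.0899 CPM in any group. That highest mean was of Saa1 in the sc-control PFC, where Saa2 was at 0.0518 CPM and Saa3 itself at only 0.251 CPM. The share of split reads in the PFC values of Saa3 was not tested.

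The levels of the 6 genes differed widely between the 3 experiments. The tables were counted and scaled separately and differ in strain, age and cell type, which cannot be told apart, so the levels are set side by side without a test. Saa3 was highest in microglia, at 63.4 to 73.8 CPM over both groups, followed by the co-cultures at 9.09 to 24.2 CPM and the PFC at 0.14 to 0.898 CPM. Acod1 followed the same order, with 36.8 to 46.7 CPM in microglia, 11.6 to 24.7 CPM in co-cultures and 0.0279 to 0.429 CPM in the PFC. For both genes the ranges of neighbouring experiments did not overlap.

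Lcn2 had another order. It was at 27.5 to 65.5 CPM in co-cultures, 2.26 to 7.4 CPM in the PFC and 0.236 to 0.818 CPM in microglia, again without overlap. Ptgs2 was highest in the PFC at 20.7 to 22.5 CPM, while microglia, at 1.77 to 2.94 CPM, and co-cultures, at 0.737 to 2.23 CPM, overlapped. Nos2 was also highest in the PFC, at 0.553 to 0.929 CPM, and overlapped between microglia and co-cultures, where it rested on 0 to 7 counts per library. Il6 rested on at most 12 counts in any library, and its PFC range overlapped that of both cultures.

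Per kilobase of exon, the order of the genes within an experiment changed as well. In sc-control microglia Saa3 stood at 25.2 ± 0.912 (SD, n = 4) and Acod1 at 15.0 ± 1.05 CPM per kilobase, while Ptgs2 was at 0.514 ± 0.0917 and Lcn2 at 0.219 ± 0.101. In sc-control co-cultures Lcn2 led with 16.8 ± 5.13 CPM per kilobase (SD, n = 8), followed by Acod1 with 4.95 ± 0.346 and Saa3 with 4.42 ± 0.512, whose ranges overlapped. In the sc-control PFC Ptgs2 led with 4.74 ± 0.19 CPM per kilobase (SD, n = 3), before Lcn2 with 1.61 ± 0.841 and Nos2 with 0.161 ± 0.0372.

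**Figure D1:**
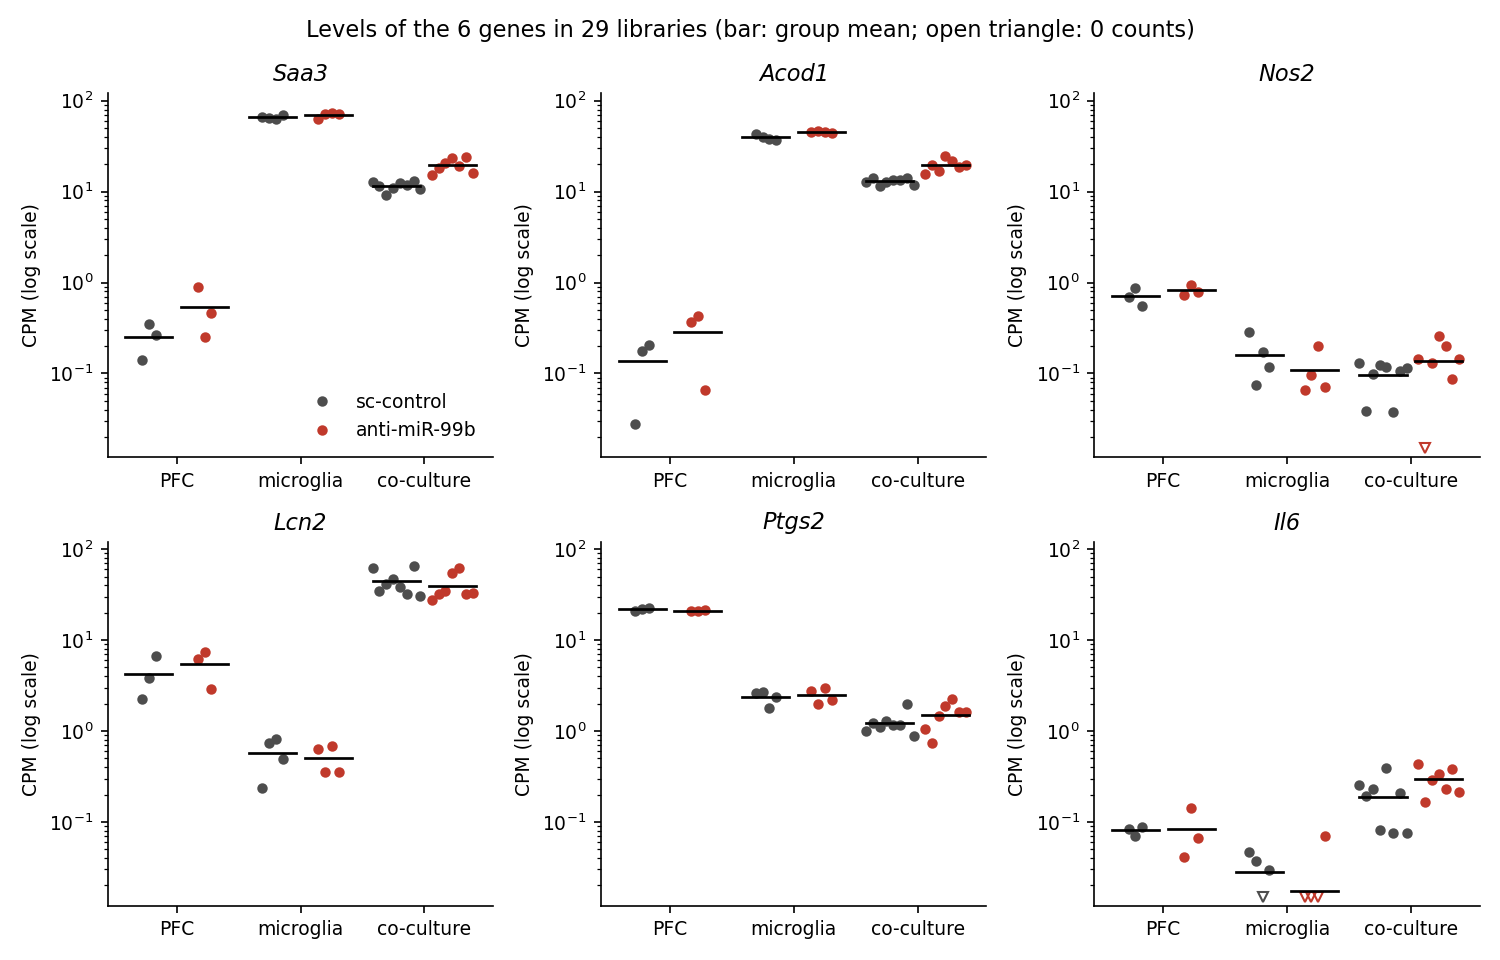
Levels of the 6 genes in each of the 29 libraries, as CPM on a log axis, by experiment and treatment. Points are libraries, bars are group means and open triangles are libraries at 0 counts, and a reader should see Saa3 and Acod1 highest in microglia, Lcn2 highest in co-cultures and Ptgs2 highest in the PFC.

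In the PFC, none of the 6 genes changed past the threshold. The question was whether injection of anti-miR-99b altered their levels in adult tissue, and a gene was called at an adjusted p under 0.1 and a log2FC (log2 fold change, anti-miR-99b over sc-control) beyond 0.2. By edgeR's quasi-likelihood test with Benjamini-Hochberg adjustment, 15 of 17364 genes tested (0.0864%) were called, and 0 of the 4 genes that passed the filter on low counts. At an unadjusted p under 0.05 the number was also 0 of 4, and DESeq2 called 0. Acod1 and Il6 did not pass the filter.

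Saa3, the serum amyloid, was at 0.898, 0.25 and 0.46 CPM in the anti-miR-99b libraries and at 0.14, 0.352 and 0.262 CPM in the sc-control libraries, from 5 to 22 counts each. In 2 of 3 anti-miR-99b libraries it was above every sc-control library, and the groups overlapped. Its log2FC was 1.08 (SE 0.51, 95% confidence interval −0.04 to 2.21, edgeR adjusted p = 0.66), and the exact two-sided permutation test gave p = 0.3, where 0.1 is the smallest p that 3 against 3 allow. Leaving out 1 library, the log2FC of Saa3 ran from 0.55 without anti-miR-99b replicate 1 to 1.42 without anti-miR-99b replicate 2. Acod1, the itaconate enzyme, was at 0.368, 0.429 and 0.0658 CPM against 0.0279, 0.176 and 0.204 CPM, or 23 counts in all against 13, so the level of most libraries was near that of a few counts. Fitted without the filter, Acod1 had a log2FC of 1.04 (SE 0.58, edgeR adjusted p = 0.714).

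Lcn2 varied more between mice than between treatments. It was at 6.25, 7.4 and 2.93 CPM after anti-miR-99b and at 2.26, 3.81 and 6.61 CPM after sc-control, and its log2FC of 0.38 (SE 0.39, edgeR adjusted p = 0.812) had a 95% confidence interval from −0.49 to 1.24. It ran from 0.066 without sc-control replicate 2 to 0.87 without sc-control replicate 4, and was not called with any 1 library left out. Ptgs2, with 511 to 772 counts per library, was the most precisely measured gene of the 6 in this tissue. It was at 20.9, 20.7 and 21.2 CPM against 20.8, 21.9 and 22.5 CPM, with a log2FC of −0.054 (SE 0.074, edgeR adjusted p = 0.862) and an interval that left room for a fold of 0.859 to 1.08. Nos2 was at 0.735, 0.929 and 0.789 CPM against 0.698, 0.881 and 0.553 CPM, and its log2FC was 0.22 (SE 0.26, edgeR adjusted p = 0.835). Il6 had 1 to 4 counts per library in both groups, too few to show a difference at this depth.

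None of the 6 had groups that did not overlap, while 2313 of the 17364 genes (13.3%) had, in either direction. The libraries ran in lanes 6 and 7 as their names give them, with 1 library of each group in lane 7. Saa3 was higher with anti-miR-99b within both lanes, by 1.22 in lane 6 and 0.81 in lane 7 (log2 ratio of means), whereas Lcn2 was higher by 1.17 in lane 6 and lower in lane 7 with a log2 ratio of −1.18. The summed microglia markers were 547 to 600 CPM after anti-miR-99b and 433 to 571 CPM after sc-control, with a median log2FC of 0.26 over the 10 markers and 0 of them called by edgeR (4 at an unadjusted p under 0.05, and 1 called by DESeq2). Neutrophils are a known source of Lcn2. Of the 8 neutrophil markers, S100a8 and S100a9 passed the filter, S100a8 with 0.72 ± 0.393 against 0.335 ± 0.172 CPM (SD, n = 3 each, edgeR adjusted p = 0.649) and S100a9 with 0.882 ± 0.16 against 0.628 ± 0.148 CPM without overlap (edgeR adjusted p = 0.671). The summed list ranged from 1.43 to 2.66 CPM against 0.916 to 1.82 CPM. The part of either cell type in the values of Saa3 and Lcn2 was not tested.

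In primary microglia treated alone, Acod1 rose slightly and the other 3 genes tested were not called. This comparison asked whether the cells that receive the inhibitor respond without neurons, with a call at an adjusted p under 0.1 and a log2FC beyond 0.1. By edgeR, 65 of 14953 genes were called higher (0.435%) and 8 lower (0.0535%), and of the 4 genes of the list that passed the filter 1 was called higher and 0 lower. At an unadjusted p under 0.05 the number was 2 of 4, Acod1 and Saa3, against 964 of all 14953 genes. Nos2 and Il6 did not pass the filter.

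Acod1 was at 45.6, 46.7, 45.4 and 44.4 CPM in the anti-miR-99b libraries and at 43.3, 39.5, 38.2 and 36.8 CPM in the sc-control libraries. All 4 anti-miR-99b libraries were above every sc-control library, as the groups of 515 of the 14953 genes tested (3.44%) also did not overlap in one direction or the other. The mean was 45.5 ± 0.961 against 39.4 ± 2.76 CPM (SD, n = 4 each), which is 1.16-fold (95% confidence interval 1.09 to 1.23), with a log2FC of 0.21 (SE 0.043, edgeR adjusted p = 0.0282). The exact two-sided permutation test gave p = 0.0286, the smallest that 4 against 4 allow. The difference held its direction within both lanes, at a log2 ratio of 0.16 in lane 5 and 0.26 in lane 6. The call was lost when 1 of 5 libraries was left out in turn, with edgeR adjusted p = 0.225 without sc-control replicate 4, 0.201 without sc-control replicate 6, 0.124 without anti-miR-99b replicate 1, 0.11 without anti-miR-99b replicate 4 and 0.17 without anti-miR-99b replicate 5, while the log2FC stayed between 0.18 and 0.26.

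Saa3 was the most abundant of the 6 in these cells and differed little. It was at 63.4, 71.9, 73.8 and 72.2 CPM after anti-miR-99b and at 65.8, 64.0, 63.7 and 68.9 CPM after sc-control, so that 3 of 4 anti-miR-99b libraries were above every sc-control library and 1 was below all of them. Its log2FC was 0.10 (SE 0.042, edgeR adjusted p = 0.704, edgeR unadjusted p = 0.027, exact permutation p = 0.143). The 95% confidence interval of the fold ran from 1.01 to 1.14.

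Ptgs2 was at 2.74, 1.97, 2.94 and 2.22 CPM against 2.59, 2.72, 1.77 and 2.34 CPM, with a log2FC of 0.09 (SE 0.15, edgeR adjusted p = 0.96). Lcn2, at 0.627, 0.355, 0.691 and 0.352 CPM against 0.236, 0.745, 0.818 and 0.497 CPM, had a log2FC of −0.20 (SE 0.31, edgeR adjusted p = 0.958), and the groups of both genes overlapped. Nos2 had 2 to 7 counts per library and Il6 at most 2, so that neither effector of full activation was at a level where a difference could be seen. The summed microglia markers were 11677 to 12010 CPM after anti-miR-99b and 11359 to 11841 CPM after sc-control, 0 of 10 were called and 0 passed an unadjusted p under 0.05 or DESeq2's test. The neutrophil markers S100a9, Ngp, Mpo and Ly6g were at 0 in all 8 libraries.

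The difference between the response of microglia and that of the PFC was tested in 1 fit over both tables, as the log2FC in microglia minus that in the PFC. With 22 of 18366 genes called at an adjusted p under 0.1 (0.12%), none of the 3 genes that had passed the filter in both experiments, Saa3, Lcn2 and Ptgs2, was called. For Saa3 the difference was −0.95 (SE 0.43, edgeR adjusted p = 0.553, unadjusted p = 0.0379), for Lcn2 −0.55 (SE 0.65, edgeR adjusted p = 0.84) and for Ptgs2 0.16 (SE 0.17, edgeR adjusted p = 0.803). Acod1 in the PFC and Nos2 in microglia rested on too few counts for their responses to be compared.

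**Figure D2:**
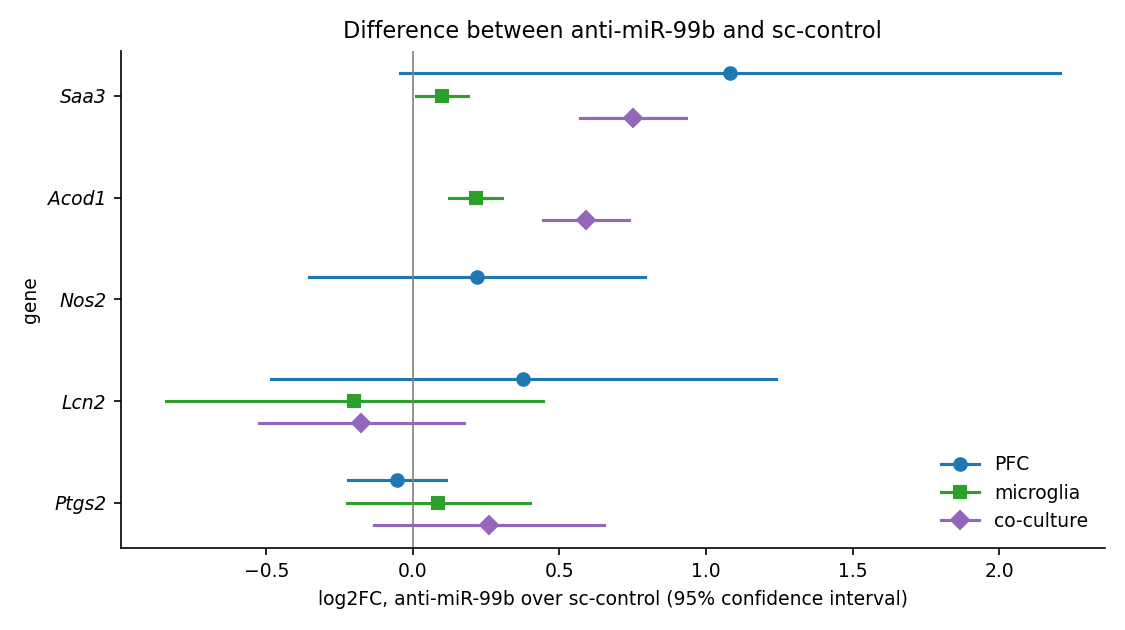
The log2FC of anti-miR-99b over sc-control with its 95% confidence interval for the genes that passed the filter on low counts in each experiment (n = 3 against 3, 4 against 4 and 7 against 8). The intervals of Saa3 and Acod1 lay above 0 in microglia, at 0.10 and 0.21, though Saa3 was not called there. The intervals of Lcn2 and Ptgs2 crossed 0 in all 3 experiments. The co-culture intervals of Saa3 and Acod1, around 0.75 and 0.59, are a description only, since that contrast was used to choose the genes.

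In the co-cultures Saa3 and Acod1 were higher with anti-miR-99b in every library, and the other 4 genes overlapped between groups. Because this contrast was used to choose the genes, their values are a description with no test. By edgeR, at an adjusted p under 0.05 and a log2FC beyond 0.1, 137 of 16193 genes were called higher (0.846%) and 90 lower (0.556%), and Saa3 and Acod1 were among those higher, which the choice of the genes had fixed.

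Saa3 was at 15.1, 18.2, 20.6, 23.4, 19.4, 24.2 and 16.2 CPM in the 7 anti-miR-99b libraries. In the 8 sc-control libraries it was at 12.8, 11.4, 9.09, 10.9, 12.6, 11.8, 13.1 and 10.6 CPM. The lowest anti-miR-99b library was above the highest sc-control library, and the means of 19.6 ± 3.43 and 11.5 ± 1.34 CPM (SD) gave a log2FC of 0.75 (SE 0.088), or 1.68-fold. Acod1 was at 15.8, 19.8, 17.0, 24.7, 21.8, 18.5 and 19.8 CPM against 12.8, 14.1, 11.6, 12.8, 13.3, 13.4, 14.0 and 11.9 CPM. Its groups did not overlap either, and the means of 19.6 ± 2.99 and 13.0 ± 0.908 CPM gave a log2FC of 0.59 (SE 0.071), or 1.51-fold. Among all genes tested, 49 (0.303%) were higher without overlap. For both genes the SD of the anti-miR-99b group exceeded that of the sc-control group.

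The co-culture libraries were spread over 4 lanes, and both genes were higher with anti-miR-99b within each. For Saa3 the log2 ratio of means was 0.46 in lane 4, 0.92 in lane 5, 0.99 in lane 6 and 0.75 in lane 7. For Acod1 it was 0.40, 0.44, 0.88 and 0.62 in the same lanes. Lanes 5 and 6 held 1 anti-miR-99b library each.

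**Figure D3:**
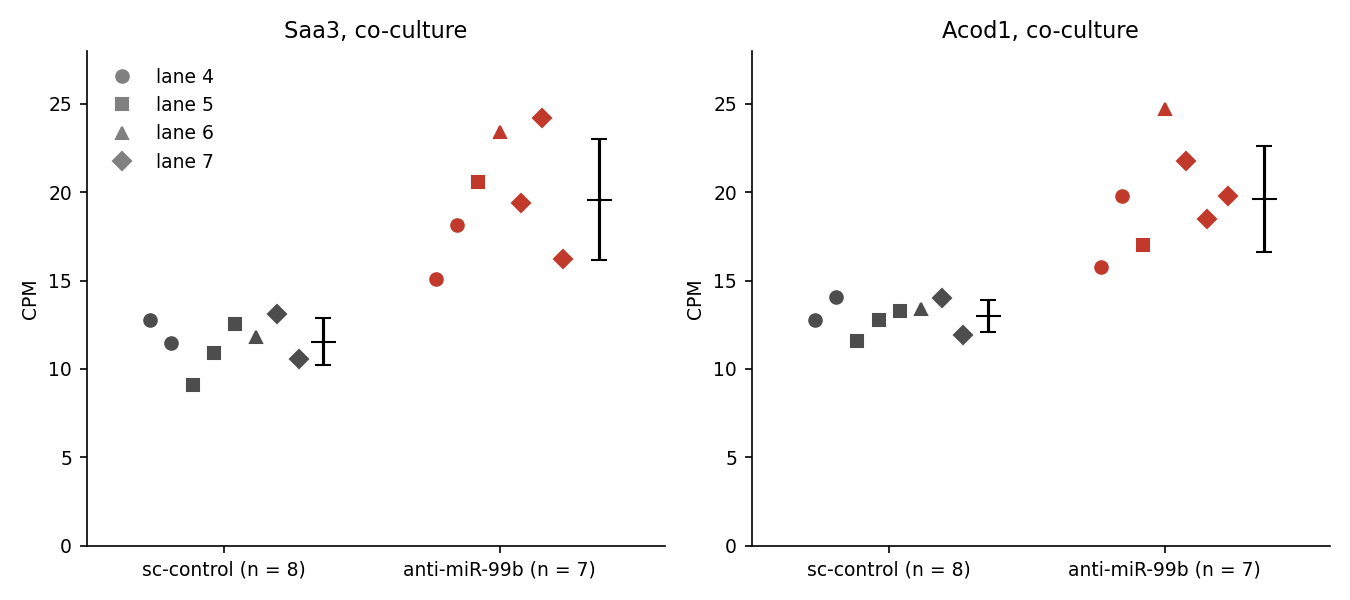
CPM of Saa3 and Acod1 in the co-culture libraries by treatment, with the sequencing lane as the marker shape and the mean ± SD of each group beside its points. All 7 anti-miR-99b libraries sit above the 8 sc-control libraries for both genes, in every lane.

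The remaining genes showed no such split. Lcn2, the most abundant of the 6 in the co-cultures, ranged from 27.5 to 61.7 CPM (median 33.3) with anti-miR-99b and from 30.2 to 65.5 CPM (median 40.3) with sc-control, and its log2FC was −0.18 (SE 0.17). Lcn2 thus differed more than 2-fold between libraries of 1 group, and its sign changed between lanes, from −0.69 in lane 4 to 0.75 in lane 6. Ptgs2 ranged from 0.737 to 2.23 CPM (median 1.61) against 0.871 to 1.97 CPM (median 1.18), with a log2FC of 0.26 (SE 0.19). Nos2 had 26 counts over the 7 anti-miR-99b libraries and 22 over the 8 sc-control libraries, and Il6 56 and 44. Il6 was at 0.168 to 0.434 CPM against 0.0757 to 0.393 CPM, and both genes were removed by the filter.

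The microglia markers moved in the same direction as Saa3 and Acod1 in these wells. Summed, they were at 124 to 138 CPM with anti-miR-99b and 99.4 to 126 CPM with sc-control, and 5 of the 10 were called higher by edgeR and 0 lower, with a median log2FC of 0.29. These were Cd68 (0.43, SE 0.053, edgeR adjusted p = 3.01e-05), Csf1r (0.34), C1qa (0.34), Cx3cr1 (0.39) and Trem2 (0.70), while Itgam had a log2FC of −0.24 and was not called. The 10 neuron markers had a median log2FC of 0.00087 and the 10 astrocyte markers of −0.0075, with 0 called in either list by edgeR or DESeq2 and 1 of each at an unadjusted p under 0.05. Scaled to the summed microglia markers of each library in place of the library size, which moved the median of all genes by −0.28, Saa3 had a log2FC of 0.48 and Acod1 of 0.31. On that scale Saa3 was at 148 ± 23.9 counts per 1000 marker counts (range 115 to 175) against 106 ± 12.1 (range 89.8 to 126), and Acod1 at 148 ± 20.2 (range 120 to 183) against 119 ± 10.4 (range 101 to 133). The groups then overlapped for both genes.

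Relative to microglia markers, the 2 genes were far higher in the co-cultures than in microglia alone. Microglia treated with sc-control had 5.67 ± 0.24 Saa3 counts and 3.4 ± 0.2 Acod1 counts per 1000 marker counts (SD, n = 4), where the sc-control co-cultures had 106 and 119. In the sc-control PFC the values were 0.529 ± 0.257 and 0.276 ± 0.186 (SD, n = 3). Lcn2 spanned a wider range, from 0.0497 ± 0.0231 in microglia to 401 ± 101 in co-cultures. The tables differ in preparation as well as in cell type, and which cells of the co-culture carried these transcripts was not tested.

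**Figure D4:**
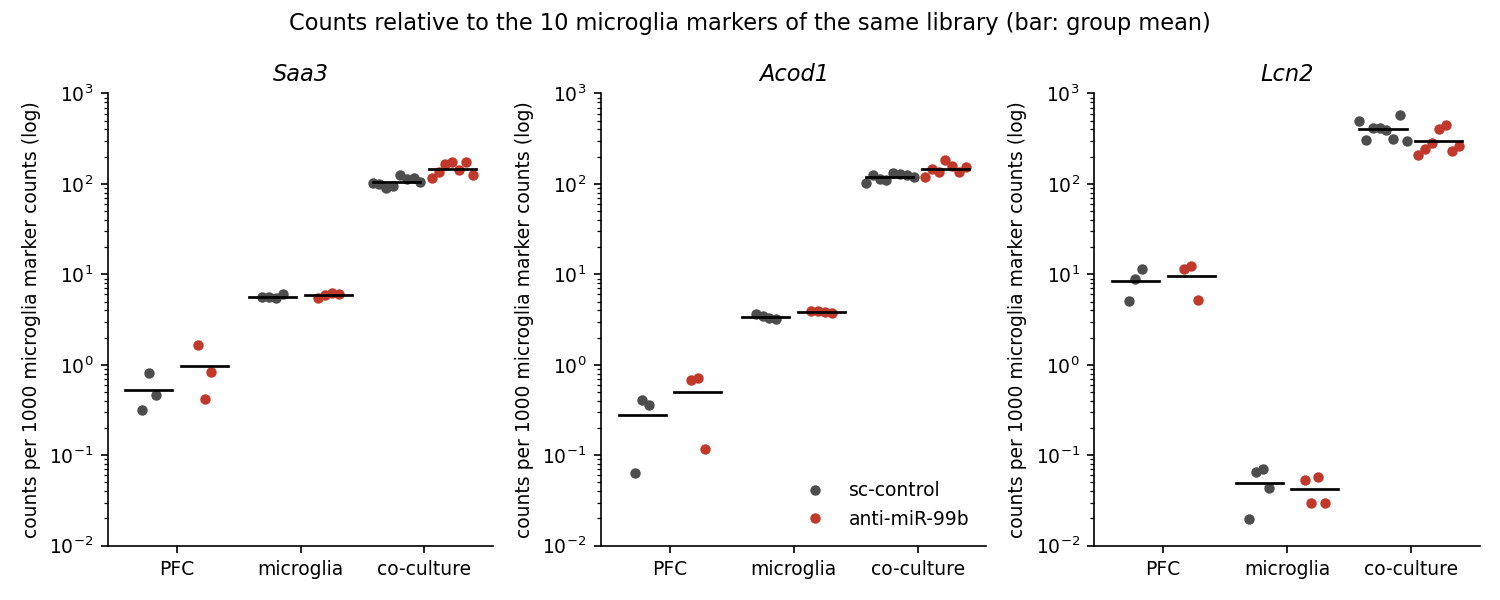
Counts of Saa3, Acod1 and Lcn2 per 1000 counts of the 10 microglia markers in the same library, on a log axis, by experiment and treatment, with bars for group means. All 3 genes sit highest in the co-cultures, where the Saa3 mean was 148 with anti-miR-99b and 106 with sc-control.

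The wider pathway was described with 96 genes in 10 lists, from sensing and NF-kB signalling to cytokines. In the PFC 84 of them passed the filter, 0 were called by edgeR and 0 by DESeq2, and 13 had an unadjusted p under 0.05, against 1326 of all 17364 genes. The median log2FC of the 84 was 0.089, against 0.0025 over all genes tested. In microglia 87 passed and 1 was called by edgeR and 0 by DESeq2, and in the co-cultures 87 passed and 5 were called, all higher, Cd14, Atf3, Fpr1, Hmox1 and Tnf, against the 0.846% of all genes called higher there. At an unadjusted p under 0.05 the numbers were 15 of 87 in microglia, against 964 of all 14953 genes, and 21 of 87 in the co-cultures, against 2139 of 16193. The medians were 0.028 in microglia and 0.058 in the co-cultures.

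On the sensing side, Cd14, the co-receptor for lipopolysaccharide, rose in the co-cultures from 6.43 ± 0.642 (SD, n = 8) to 9.13 ± 0.934 CPM (SD, n = 7), a log2FC of 0.50 (SE 0.069, edgeR adjusted p = 0.00016), and was the only 1 of the 14 sensing and NF-kB signalling genes called there. Relative to the microglia markers of the same wells, 5 of which rose, its log2FC was 0.23 (edgeR adjusted p = 0.00443). On that scale 13443 genes were called, so an adjusted p there is close to the unadjusted p. In microglia Cd14 was at 727 ± 52.3 CPM with sc-control and 749.5 ± 17.3 CPM with anti-miR-99b and was not called (edgeR adjusted p = 0.91). The 8 feedback inhibitors and co-activators of NF-kB had 0 calls by edgeR or DESeq2 in any experiment, with 2, 1 and 2 of them at an unadjusted p under 0.05 in the PFC, microglia and co-cultures. The genes with the smallest p in that list were Zc3h12a in the PFC (log2FC 0.56, edgeR adjusted p = 0.648), an RNase that degrades Il6 mRNA, Tnip1 in microglia (0.095, edgeR adjusted p = 0.654) and Nfkbiz in the co-cultures (0.12, edgeR adjusted p = 0.231).

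Among 10 transcription factors of the acute response, the 1 called in the co-cultures was Atf3, a stress-induced repressor of inflammatory genes, with a log2FC of 0.29 (SE 0.067, edgeR adjusted p = 0.0233). The Atf3 call was lost with the lane as a block (edgeR adjusted p = 0.0754), relative to the microglia markers (0.853), without anti-miR-99b replicate 10 (0.0692) and without sc-control replicate 12 (0.0607).

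In the list around Saa3, Fpr1, a receptor for formyl peptides, rose in the co-cultures from 3.85 ± 0.496 to 5.5 ± 0.903 CPM (log2FC 0.51, SE 0.095, edgeR adjusted p = 0.00458). It was the only gene called of the 6 in the list of serum amyloid A genes and receptors, of which 3 were tested. Fpr2, of the same list, was at 0.775 ± 0.275 CPM with sc-control and 0.936 ± 0.229 CPM with anti-miR-99b. Fpr2 was not called (log2FC 0.28, SE 0.19, edgeR adjusted p = 0.583). Of 10 genes tied to itaconate, Hmox1, heme oxygenase 1, rose from 42.3 ± 2.78 to 49.3 ± 0.956 CPM in the co-cultures (log2FC 0.22, SE 0.035, edgeR adjusted p = 0.000992), without overlap between groups. Relative to the microglia markers, which rose in the same wells, Hmox1 turned to −0.060 and Fpr1 was at 0.23 (edgeR adjusted p = 0.0115). That adjusted p again comes from the scale on which most genes were called. In the lists of nitric oxide and arginine metabolism, lipocalin and iron handling, prostaglandin synthesis and interleukin-6 signalling, 0 genes were called in any experiment by edgeR or DESeq2. In the co-cultures the numbers at an unadjusted p under 0.05 were 4 of 8 tested, 3 of 8, 3 of 12 and 1 of 9, where 2139 of all 16193 genes passed it. In microglia they were 1 of 7, 3 of 8, 1 of 12 and 0 of 10, and in the PFC 1 of 8, 0 of 8, 0 of 12 and 1 of 10.

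The genes with the smallest p in these lists in the co-cultures were Nos1, the neuronal nitric oxide synthase (log2FC −0.11, edgeR adjusted p = 0.108), Hp, or haptoglobin (0.82, edgeR adjusted p = 0.111), Hpgds, a prostaglandin D synthase (0.22, edgeR adjusted p = 0.0772), and Lifr, the receptor for leukemia inhibitory factor (−0.12, edgeR adjusted p = 0.109). Among the cytokines, Tnf rose from 5.73 ± 0.69 to 7.9 ± 0.837 CPM without overlap (log2FC 0.46, SE 0.075, edgeR adjusted p = 0.00117), the only 1 called of the 5 tested. Relative to the microglia markers, a scale on which most genes were called, its log2FC was 0.18 (edgeR adjusted p = 0.0323). Il1b, at 1.5 ± 0.221 CPM with sc-control and 2.09 ± 0.758 CPM with anti-miR-99b, had a log2FC of 0.48 and was not called (SE 0.17, edgeR adjusted p = 0.174). In microglia Tnf was at 37.1 ± 2.84 and 37.3 ± 1.17 CPM, with a log2FC of 0.016 (SE 0.047, edgeR adjusted p = 0.984).

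**Figure D5:**
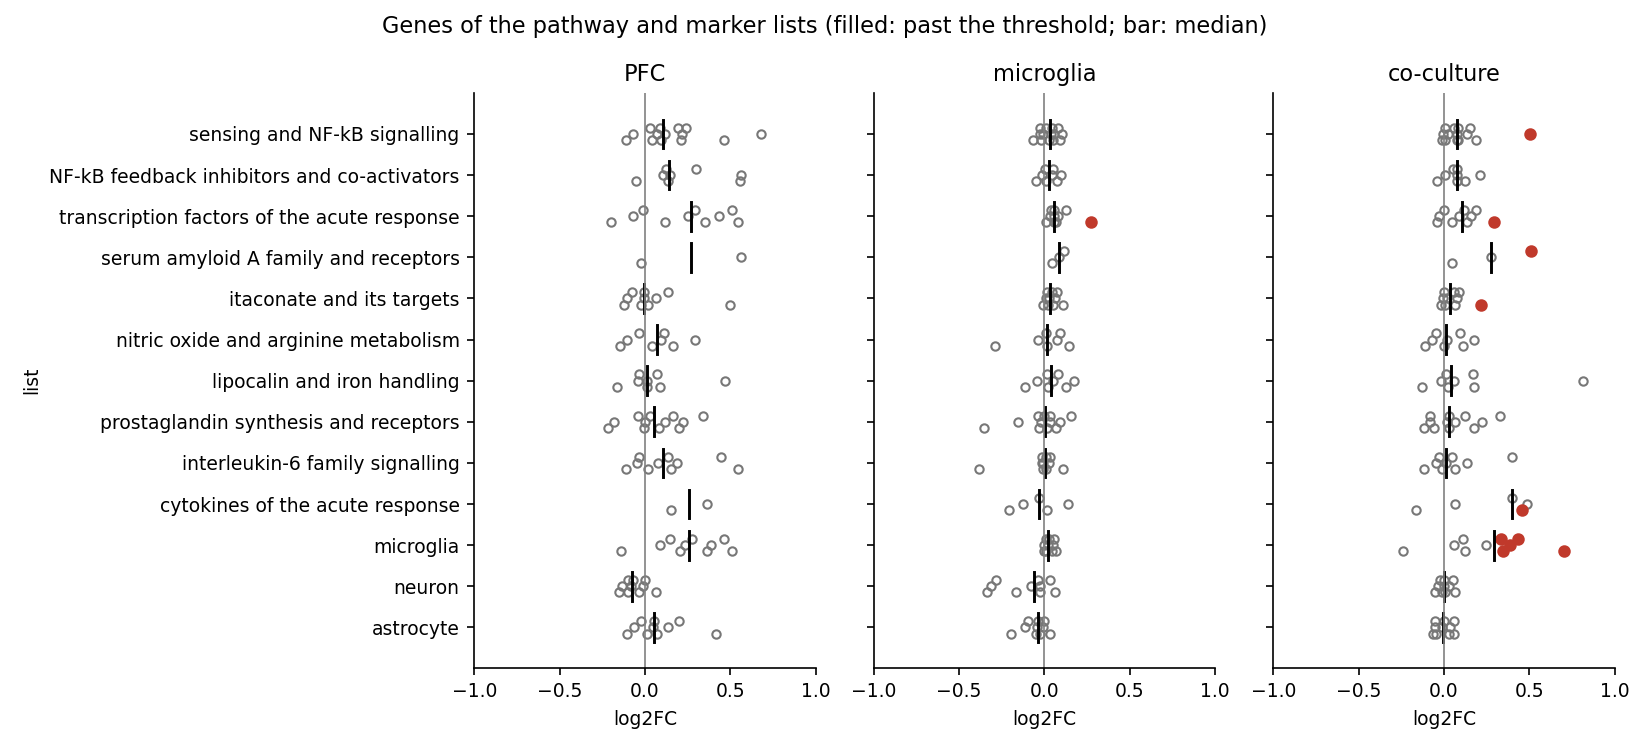
The log2FC of anti-miR-99b over sc-control for each gene of the 10 pathway lists and 3 marker lists in the PFC, microglia and co-cultures. Filled points passed the threshold of their experiment and bars are list medians, and the filled points number 0 in the PFC, 1 in microglia and 10 in the co-cultures, of which 5 are microglia markers.

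No neutrophil marker passed the filter in the co-cultures, where S100a9 and Ngp were at 0 in all 15 libraries and the summed list stayed at or below 0.355 CPM. Border macrophage and monocyte markers summed to between 1.29 and 2.19 CPM there and to between 265 and 300.5 CPM in microglia, with 0 called by edgeR in any experiment (1 of 6 tested at an unadjusted p under 0.05 in microglia, 0 elsewhere). DESeq2 called 0 of these in all 3. In sc-control microglia Mrc1 had the highest mean of the list, 245 CPM, followed by Pf4 at 32.1 and F13a1 at 5.99 CPM.

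Over all 29 libraries, the genes whose log2(CPM + 0.5) followed a gene of the list most closely shared mainly its order across the 3 experiments, since the libraries of 1 experiment share tissue and preparation. For Acod1 these were H2-Q2 (Pearson r = 0.993), Eprs (0.993) and Arpc5 (0.993) among 16186 genes, and for Saa3 Copb2 (0.988), Btg1 (0.988) and Ddias (0.988). For Lcn2 they were S1pr3 (0.99), Steap4 (0.989) and Slc16a9 (0.986), for Ptgs2 Mfsd4a (0.987), Tm4sf1 (0.986) and Gucy2g (0.985), for Nos2 Higd1b (0.954), Spint1 (0.953) and Neu4 (0.952), and for Il6 Cers3 (0.86), Cox7b (0.857) and Pop4 (0.857). With group means subtracted, over the 15 co-culture libraries and 14158 genes, Saa3 went with Mgst1 (0.872), Lox (0.839) and Rnf32 (0.821), and Acod1 with H3f3b (0.895), Mynn (0.892) and Cfap69 (0.876). For both Saa3 and Acod1 the 3 genes of this set differed from those over all libraries. These are the highest of many correlations and are given as a description.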

How the data were processed

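RNA-seq was analysed in 29 libraries of 3 experiments, with groups, replicate numbers and lanes taken from the sample labels. The authors prepared TruSeq v2 libraries and sequenced single reads of 50 bases, and per the submitters' processing notes used bcl2fastq 2.20.2, FastQC 0.11.5, STAR 2.5.2b (mm10) and featureCounts 1.5.1. They deposited raw counts per gene, with no normalization. The annotation release and strand setting are not given in the sources used here. Symbols and exon lengths came from GENCODE M21, which named 48349 of 48709 identifiers.

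Each table was analysed alone with edgeR 4.0.16 in R 4.3.3 (filterByExpr, TMM, glmQLFTest), with Benjamini-Hochberg adjustment over all genes tested. Thresholds were in the PFC an adjusted p under 0.1 with a log2FC past 0.2, in microglia 0.1 with 0.1, and in co-cultures 0.05 with 0.1. Single values were compared by exact two-sided permutation tests. No pair of libraries in a group agreed within sampling noise (chi-square per degree of freedom at least 1.44). The main edgeR and DESeq2 fits of each table, and the edgeR fit of the difference between microglia and PFC, were tested on simulated counts. Confidence intervals of the folds rest on the spread between libraries, and the level of 3 counts covers counting error only.

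The genes and the pathway and marker lists were chosen with earlier results of these data known. Beside the 6 genes, the rule for named genes took up to 4 genes of a pathway list past the threshold, otherwise a gene with the smallest p, the marker genes past the threshold, and the 3 genes closest to each in pattern. Some listed genes past the threshold are not reported here. Of the smallest-p genes, those of the co-cultures and, for the feedback list, of each experiment were printed. Libraries with equal numbers did not deviate together (correlations of −0.285 to 0.0476). The alternatives were DESeq2 1.42.0, upper-quartile or RLE scaling, no filter, at least 10 counts in every library, lane or replicate number as a block, 1 RUVs factor, scaling to microglia markers (PFC and co-cultures), and each library left out.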

Additional observations from a re-analysis of the deposited data

Results flagged for a closer look

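A gap test on the highest and lowest library was run on 24 sets of values, the 6 genes in the groups of 4 or more libraries, and marked 2 of them. Chance marks about 1 in 20. Ptgs2 in the co-culture sc-control library of replicate 11 was at 1.97 CPM (75 counts), where the next library was at 1.28 and the lowest at 0.871 CPM. The same library had the highest Saa3 (13.1 CPM) and Lcn2 (65.5 CPM) of its group. Il6 in the microglia anti-miR-99b library of replicate 5 was at 0.0704 CPM, which is 2 counts, while the other 3 libraries were at 0.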

How the results depend on the processing

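The main numbers of genes called were 15 in the PFC, 73 in microglia and 227 in the co-cultures, with 22 for the difference between microglia and PFC. Under DESeq2 they were 93 in the PFC, 38 in microglia and 166 for the difference, and under upper-quartile factors 25 in the PFC. Without a filter they were 412 in the PFC and 167 in microglia, and with at least 10 counts in every library 48 for the difference. With lane as a block they were 77 in the PFC and 121 in the co-cultures, and with 1 RUVs factor 284, 160 and 520. Scaled to the microglia markers, the PFC had 148 (60 higher, 88 lower, median of all genes −0.25) and the co-cultures 13443 (51 higher, 13392 lower, median −0.28), as the scaling itself shifts all genes. On that scale Nos2 in the PFC reversed to −0.039 and Hmox1 in the co-cultures to −0.060, and Saa3 and Acod1 in the co-cultures moved to 0.48 and 0.31. Leaving out 1 library, the numbers ranged from 1 to 201 in the PFC, from 2 to 409 in microglia, from 143 to 300 in the co-cultures and from 7 to 479 for the difference. The microglia calls among the 6 genes then ranged from 0 to 1, with Acod1 at 0.18 to 0.26, Lcn2 at −0.40 to 0.011 and Ptgs2 at −0.031 to 0.18, the last reversed without sc-control replicate 4 (−0.031) or anti-miR-99b replicate 4 (−0.017), and Lcn2 without sc-control replicate 4 (0.011). The cause was not tested.

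The replicate numbers pair libraries in name only. With them as a replicate block over the libraries that share a number between groups, 518 genes were called in the PFC (1 of the 6 genes, Lcn2, 0.72, edgeR adjusted p = 0.00906), 249 in microglia (2 of the 6, Acod1 and Saa3, the latter at 0.18, edgeR adjusted p = 0.0172) and 93 in the co-cultures, where Acod1 moved to 0.43 and Fpr1, Tnf, Atf3 and Cx3cr1 lost their calls (edgeR adjusted p = 0.125, 0.0861, 0.409 and 0.0632). This block rests on 2, 2 and 4 pairs.

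In all 24 alternatives run for the co-cultures, Saa3 stayed between 0.48 and 0.81 and Acod1 between 0.31 and 0.64. Cd14, Cd68 and Trem2 stayed past the threshold in each of the 24, alternatives added for these genes after the data were seen. These include the scale of the microglia markers, on which most genes were called and which Cd68 and Trem2 help to set. At these depths Nos2 and Il6 in cultures, and Acod1 and Il6 in the PFC, rest on too few counts for a difference to be seen.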
